A study of Drosophila melanogaster with 15 samples.

Results

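The expression of 10 genes used as markers of glia was followed in RNA from nuclei purified from the mushroom body of male Drosophila melanogaster. The genes are repo, Gs2, Eaat1, alrm, wrapper, moody, Gli, Gat, bdl and nrv2. They were chosen by name, as the rows of the count tables whose FlyBase gene ID carries one of these symbols, and all 10 were found among 17559 gene IDs. The other genes served only as the background against which the 10 were read.

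Nuclei were isolated with INTACT, an affinity method that captures nuclei bearing a tagged nuclear envelope protein, here UNC84 fused to GFP. Every group carried 1 copy of UAS-unc84::GFP and the R14H06-Gal4 driver, which the submitters describe as specific to the mushroom body. Knockdown flies also carried UAS-Bap6032503, an RNAi construct against Bap60, which encodes a component of the SWI/SNF chromatin remodeller, and control flies carried UAS-mCherryRNAi, a hairpin against a protein that flies do not have. Juvenile flies were taken 0 to 3 hours after eclosion, giving 3 control and 2 knockdown libraries, and mature flies 1 to 5 days after eclosion, giving 5 control and 5 knockdown libraries. All flies were raised at 25°C and 70% humidity. Whether replicate libraries were made from different flies is not stated in the labels, and p-values therefore reflect only the variation among these libraries, which may be technical. The driver sets which nuclei carry the tag, and the labels give no measure of how many other nuclei were carried along.

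Glia are the non-neuronal cells of the nervous system. In the fly brain, astrocyte-like glia take up and recycle transmitters, ensheathing and cortex glia wrap axons and cell bodies, and perineurial and subperineurial glia form the blood-brain barrier. Kenyon cells, the intrinsic neurons of the mushroom body, are not glia, so these genes are commonly used to look for RNA of cells other than the targeted neurons. Some of them are also used outside glia: nrv2, which encodes a β subunit of the Na+/K+ ATPase, is expressed in neurons as well, and bdl, which encodes an immunoglobulin-superfamily adhesion protein, is known from photoreceptor axons as well as wrapping glia.

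Libraries held 37879789 to 53143845 gene counts in juveniles and 17447070 to 70495790 in mature flies. Levels are given as CPM, a gene's counts per 1000000 counts of its library, with library sizes scaled by the trimmed mean of M-values (TMM). Bap60, the targeted gene, stood at 11.8, 5.15 and 11.5 CPM in juvenile controls and at 5.03 and 7.63 CPM in juvenile knockdowns, and these groups overlapped. In mature flies Bap60 ranged from 15.6 to 21.7 CPM in controls and from 7.08 to 14.5 CPM in knockdowns, with no overlap. Its log2 fold change was -0.58 ± 0.33 (SE) in juveniles and -0.63 ± 0.23 in mature flies, and neither passed the test over all genes (edgeR adjusted p = 0.331 and 0.719).

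Of the 10 markers, 8 had counts and passed the filter on low counts. The other 2, alrm and moody, were listed at 0 in all 15 libraries. The product of alrm is a leucine-rich repeat protein that marks astrocyte-like glia, and moody encodes a G-protein-coupled receptor of the blood-brain barrier. On assembly BDGP6.54, alrm occupies 3R, 25381065 to 25382781 on the minus strand, and all 1717 bases of its span lie inside Fur1 on the same strand. The gene moody occupies X, 2044292 to 2050120 on the minus strand, and all 5829 bases of its span lie inside CG4313 on the opposite strand.

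Genes in this position nearly all lacked counts. Of 3205 genes whose whole span lies inside other genes, 3187 (99.4%) were listed at 0 in every library, against 507 of 9173 genes (5.53%) that overlap no other gene and 132 of 4875 genes (2.71%) that share part of their span. Among genes that lie wholly inside genes of the opposite strand only, as moody does, 1636 of 1643 (99.6%) were listed at 0. The 0 given for alrm and moody is therefore not read as absence of their RNA, and no level, floor or fold is given for either. Among the other 8 markers, repo shares 183 of 3411 bases with CG7156, and Gs2, Eaat1, Gat, wrapper, Gli, bdl and nrv2 share no bases with another gene.

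**Figure D1:**
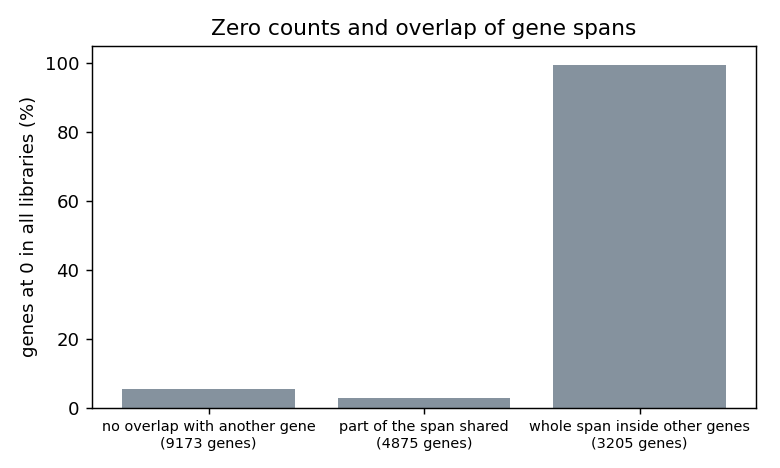
Percentage of genes listed at 0 in all 15 libraries (vertical axis, from 0) for genes grouped by how much of their span overlaps other genes (horizontal axis, with the number of genes). Genes that lie wholly inside other genes, which include alrm and moody, stood at 99.4%, and the other classes at 5.53% and 2.71%.

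The 8 measured markers were present in every library of every group. Per kilobase of span not shared with another gene, Gs2, which encodes a glutamine synthetase, had the highest level in juvenile controls, at 135 ± 6.5 CPM per kb (SD, n = 3). It was followed by bdl at 34.3 ± 2.9, nrv2 at 25.0 ± 1.0, Eaat1 at 24.5 ± 0.50, Gat at 13.9 ± 0.28, Gli at 8.45 ± 1.0, repo at 8.24 ± 1.7 and wrapper at 1.03 ± 0.48 CPM per kb. In this order nrv2 and Eaat1 overlapped, as did Gli and repo, and the other neighbours did not. In mature controls the level per kilobase was 73.4 ± 16 for Gs2, 22.3 ± 3.5 for Eaat1, 17.0 ± 2.1 for bdl, 16.8 ± 1.3 for nrv2, 9.31 ± 1.8 for Gat, 8.86 ± 1.0 for repo, 4.30 ± 0.91 for Gli and 2.73 ± 0.54 CPM per kb for wrapper (SD, n = 5). There bdl and nrv2 overlapped, as did Gat and repo and also Gli and wrapper, and Eaat1 reached into the range of bdl. On the same scale the 12 Kenyon cell markers ranged in juvenile controls from 8.90 CPM per kb for dnc, which encodes a phosphodiesterase, to 82.5 for jdp, with rut, an adenylyl cyclase gene, at 65.1. Levels per kilobase of span of the glial and the Kenyon cell lists thus overlapped. On this scale ey and Mef2, transcription factor genes of Kenyon cells, stood at 24.3 and 24.4, close to nrv2 and Eaat1. Divided by exon length instead, the glial markers kept the order given above in juvenile controls except that Eaat1, at 65.2 CPM per kb of exon, stood above nrv2, at 63.6. By exon length ey and Mef2 stood at 154 and 120 CPM per kb, well above Eaat1 and nrv2, so their closeness depended on the measure of length.

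**Figure D2:**
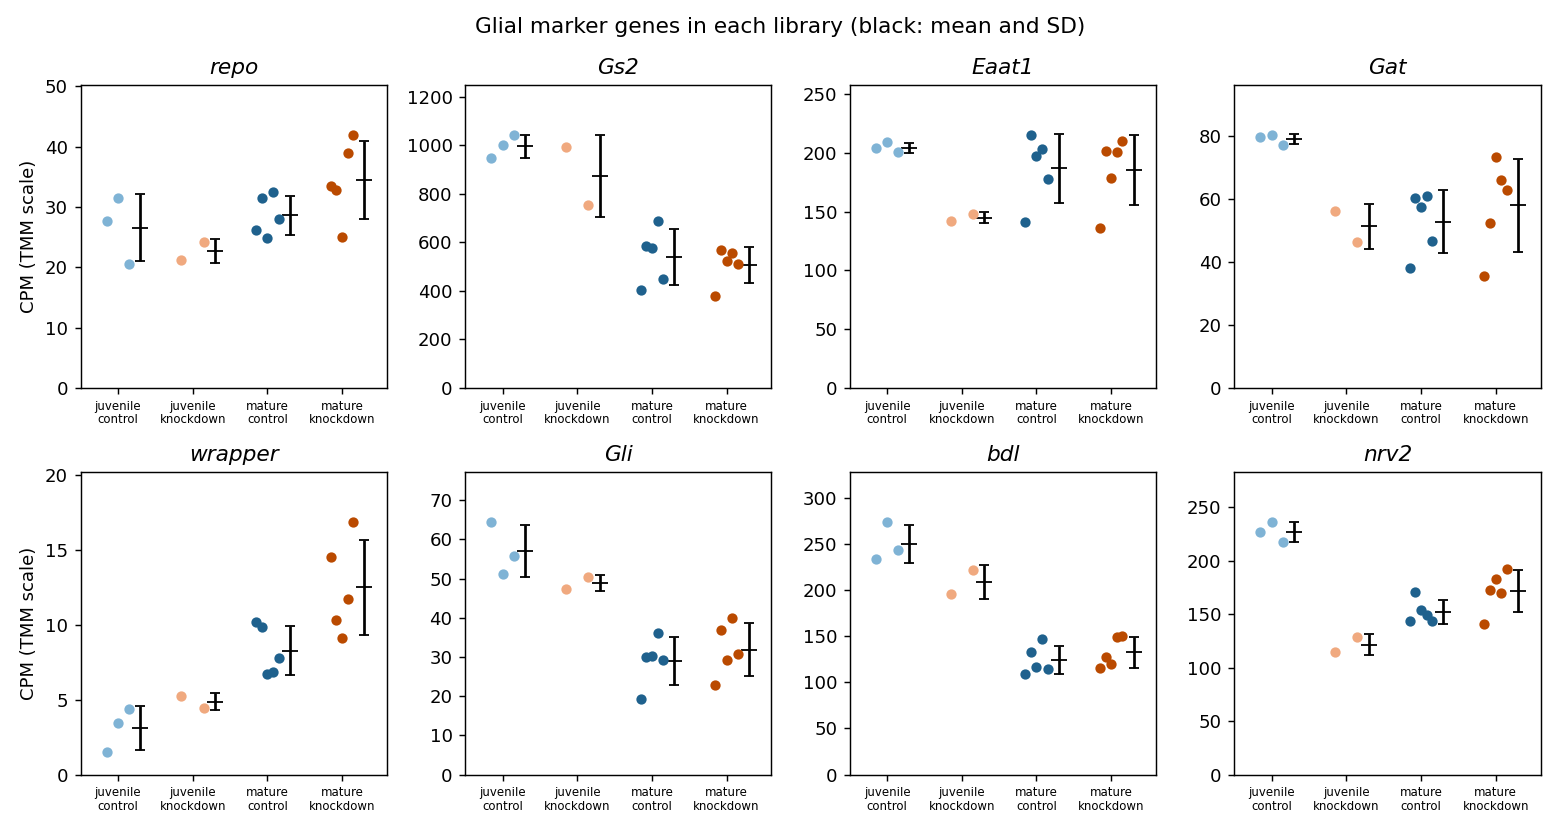
Level of each measured glial marker (vertical axis, TMM-scaled CPM, from 0) in each library, by group (horizontal axis). Points are libraries, and the black mark and bar to the right of each group are its mean and SD (3, 2, 5 and 5 libraries). The level of nrv2 in juvenile knockdowns lies below every other library, and Gs2, Gli and bdl lie lower in both mature groups than in both juvenile groups.

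In juvenile flies, 1 of the 8 markers differed between knockdown and control: nrv2, which lies on 2L, 6789770 to 6798862 on the minus strand, was lower in the knockdown. It stood at 227, 236 and 218 CPM in the 3 controls and at 115 and 129 CPM in the 2 knockdowns. Both knockdown libraries lay below every library of every other group. It fell by 46.4%, a log2 fold change of -0.90 ± 0.14 (SE), with an edgeR adjusted p of 0.00177. Fewer cells of a type and less RNA per cell cannot be told apart in such bulk samples. Across all 11997 genes tested, 3.79% were called lower and 1.54% higher in this comparison, and of the 8 markers 1 was called lower and 0 higher.

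Eaat1 and Gat also lay lower in juvenile knockdowns, without passing the test. Eaat1, the glial glutamate transporter, stood at 204, 209 and 201 CPM in controls and at 142 and 148 CPM in knockdowns. Its groups did not overlap, and its log2 fold change was -0.50 ± 0.18 (adjusted p = 0.107). Gat, the GABA transporter of astrocyte-like glia, stood at 79.5, 80.2 and 77.2 CPM in controls and at 56.3 and 46.3 CPM in knockdowns, again without overlap. The log2 fold change of Gat was -0.62 ± 0.24 (adjusted p = 0.140). The 7 transporter genes of the wider glial list did not share one direction. The mean level of Eaat2 was 221 CPM in controls and 240 CPM in knockdowns, and that of Indy 94.4 and 130 CPM. That of ine was 52.8 and 57.3 CPM and that of zyd 25.5 and 25.8 CPM. Means were lower in knockdowns for kcc, at 570.0 and 447 CPM, CarT, at 18.4 and 9.84 CPM, and gb, at 5.66 and 3.11 CPM. None of the 7 passed the test.

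The remaining markers had smaller or less even differences in juveniles. The log2 fold change was -0.19 ± 0.20 for Gs2, -0.22 ± 0.23 for Gli, which encodes the tricellular junction protein Gliotactin, -0.26 ± 0.15 for bdl and -0.23 ± 0.21 for repo, the homeodomain factor of nearly all lateral glia. For wrapper, which encodes an immunoglobulin-superfamily protein of glia, it was 0.64 ± 0.35, on levels of 1.52, 3.47 and 4.38 CPM in controls and 5.28 and 4.46 CPM in knockdowns. Neither wrapper (adjusted p = 0.315) nor any of the other 4 passed the test. As with Eaat1 and Gat, the knockdown and control libraries of Gli, bdl and wrapper did not overlap, whereas those of Gs2 and repo did. The share of all genes separated in this way was not counted, and with so few libraries separation alone does not set a gene apart. The median log2 fold change of the 8 markers was -0.24, beside -0.02 for all genes tested. Over a wider list of 34 other genes with known roles in glia, 30 were tested and 1, Obp44a, was called, at -0.76 ± 0.20 (adjusted p = 0.0363). Obp44a, an odorant-binding-protein family member made by glia, stood between 210 and 219 CPM in controls and between 122 and 130 CPM in knockdowns.

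Markers of other cell types also differed in level between these juvenile groups. The summed CPM of 12 Kenyon cell markers ranged from 9064 to 13016 in controls and from 8218 to 8437 in knockdowns, and 3 of the 12 were called lower. Of 6 tested markers shared by all neurons 1 was called lower, and of 9 tested photoreceptor markers 2 were. Muscle markers summed to between 8292 and 11319 CPM in controls and between 14311 and 17458 CPM in knockdowns, and 0 of 8 were called. Fat body markers summed to between 364 and 426 CPM in controls and between 467 and 491 CPM in knockdowns, with 1 of 9 called higher, and haemocyte markers to between 449 and 563 CPM and between 272 and 341 CPM, with 0 of 6 called. All 12 Kenyon cell markers and all 8 muscle markers had counts, Syx1A of the neuronal list and Arr2 of the photoreceptor list were listed at 0, and their part in the fall of nrv2 was not tested. The spread among juvenile libraries was wide, with a common biological coefficient of variation of 0.8635 over all genes, against 0.2514 in mature flies. With limma-voom and sample weights, which lets each library have its own spread, nrv2 had nearly the same fold change, -0.89 ± 0.22, and did not pass (adjusted p = 0.139).

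In mature flies none of the 8 markers passed the edgeR test between knockdown and control, where 0.0583% of all genes were called in either direction. The gene nrv2 stood at 143, 171, 154, 149 and 144 CPM in controls and at 141, 173, 183, 170 and 192 CPM in knockdowns. These groups overlapped, and the knockdown group held both the lowest and the highest library. The log2 fold change of nrv2 was 0.17 ± 0.09 (adjusted p = 0.850). The largest fold change was that of wrapper, at 10.2, 9.87, 6.73, 6.84 and 7.80 CPM in controls and 14.5, 10.3, 9.11, 11.8 and 16.9 CPM in knockdowns. Only the lowest knockdown library, the third, fell inside the control range. Its log2 fold change was 0.59 ± 0.24 with an unadjusted p of 0.0264 in edgeR and an adjusted p of 0.787. The same gene passed under limma-voom with sample weights, at 0.78 ± 0.19 (adjusted p = 0.0490). That method called 114 of the 11997 genes tested in this comparison, against 7 by edgeR.

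The other 6 markers had smaller fold changes than wrapper in mature knockdowns. The log2 fold change was 0.27 ± 0.15 for repo, 0.14 ± 0.16 for Gli, 0.14 ± 0.17 for Gat, 0.10 ± 0.11 for bdl, -0.09 ± 0.14 for Gs2 and -0.01 ± 0.12 for Eaat1. For each of these 6 the knockdown and control libraries overlapped. By edgeR, 1 of the 8 markers, wrapper, had an unadjusted p under 0.05, as did 693 of the 11997 genes tested. With only 8 markers, 1 such gene cannot be set apart from that background. The median log2 fold change of the 8 markers was 0.14, beside -0.04 for all genes, and 0 of the 30 other glial genes were called.

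**Figure D3:**
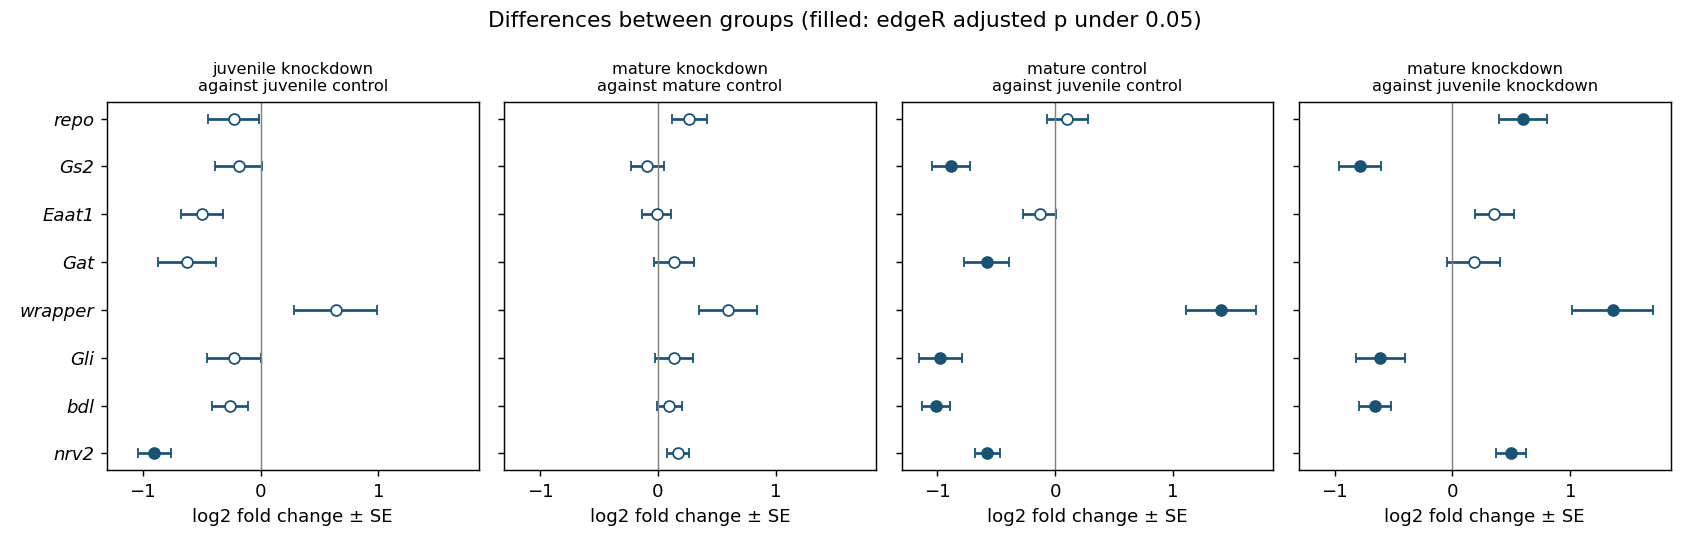
Log2 fold change of each glial marker (horizontal axis, with its standard error) in 4 comparisons between groups. Filled points passed an edgeR adjusted p of 0.05. The gene nrv2 is the only filled point among the juvenile knockdown values, at -0.90, and none is filled in the mature knockdown.

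The effect of the knockdown on nrv2 differed between the ages. The difference of its log2 fold changes, mature minus juvenile, was 1.07 ± 0.17 (SE, edgeR adjusted p = 0.00657). Of all genes, 1.28% were called higher and 0.275% lower in this test, and nrv2 was the 1 call among the 8 markers. Gat came next, with a difference of 0.76 ± 0.30 that did not pass (adjusted p = 0.199), and then repo at 0.50 ± 0.26 and Eaat1 at 0.49 ± 0.22 (adjusted p = 0.365 and 0.268). The difference was 0.36 ± 0.28 for Gli, 0.35 ± 0.19 for bdl, 0.10 ± 0.25 for Gs2 and -0.05 ± 0.43 for wrapper. The median over the 8 markers was 0.42, beside -0.03 for all genes. Lists of other cell types had medians as large or larger in this test, at 0.48 for Kenyon cell markers with 2 of 12 called higher, 0.58 for markers of all neurons, 0.85 for photoreceptor markers with 1 of 9 called higher and 0.91 for haemocyte markers. For muscle the median was -0.85 and for fat body -1.25, and the part of these cell types in the nrv2 value was not tested. None of the 30 other glial genes was called in this test. With limma-voom and sample weights the difference for nrv2 was 1.15 ± 0.23 and missed the threshold (adjusted p = 0.0769).

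Scaling bears on how many genes lie on each side in these tests. In the juvenile comparison, 185 genes were called higher and 455 lower with TMM, 281 and 335 when RLE size factors were used, and 314 and 234 with upper-quartile scaling. For the difference of effects the counts were 153 and 33 with TMM and 64 and 38 with upper-quartile scaling. The nrv2 calls were made under all 3 scalings.

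From juvenile to mature controls, 5 markers fell and 1 rose. The 2 ages also differed in depth and in how the files were made, since only the 10 mature files list an UNC84 entry, so age and processing cannot be told apart. These comparisons reuse the libraries of the knockdown comparisons, and the values are given side by side without a test of their likeness. Of all genes, 9.87% were called lower and 12.2% higher between juvenile and mature controls.

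The largest fall was that of bdl, from 233, 273 and 243 CPM in juvenile controls to 109, 133, 116, 146 and 115 CPM in mature controls. The groups lay far apart, and the fall was -1.01 ± 0.12 on the log2 scale (adjusted p = 1.7e-05). Gli fell from 64.4, 51.2 and 55.7 CPM to 19.2, 30.0, 30.4, 36.2 and 29.3 CPM, a log2 fold change of -0.98 ± 0.18 (adjusted p = 9.0e-04). Every mature library of Gli lay below every juvenile one. Gs2 fell from 947, 1002 and 1041 CPM to 403, 584, 577, 689 and 450 CPM, a log2 fold change of -0.88 ± 0.16 (adjusted p = 6.4e-04), also without overlap.

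The ATPase subunit gene nrv2 fell by 0.57 ± 0.11 on the log2 scale (adjusted p = 7.7e-04), and all mature controls lay below all juvenile controls. Gat fell by 0.58 ± 0.19 on the log2 scale (adjusted p = 0.0349), to 38.1, 60.3, 57.5, 61.1 and 46.6 CPM, and its call was lost without any 1 of the 3 juvenile controls, without juvenile knockdown replicate 1, and without mature control replicate 1, 3 or 5 (adjusted p from 0.0561 to 0.0832). With limma-voom and sample weights Gat also missed the threshold (adjusted p = 0.106). Against these, wrapper rose by 1.41 ± 0.30 on the log2 scale (adjusted p = 0.00253), to a level at which each mature library lay above each juvenile one. With limma-voom and sample weights the rise of wrapper missed the threshold (adjusted p = 0.0796). The genes repo, at 0.10 ± 0.17, and Eaat1, at -0.13 ± 0.14, did not pass (adjusted p = 0.686 and 0.523).

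From juvenile to mature knockdowns, 3 markers fell and 3 rose, where 16.4% of all genes were called lower and 17.8% higher. The falls were those of Gs2 at -0.79 ± 0.18 (adjusted p = 0.00276), bdl at -0.66 ± 0.14 (adjusted p = 0.00141) and Gli at -0.61 ± 0.21 (adjusted p = 0.0298). Gs2 stood at 995 and 756 CPM in juvenile knockdowns and at 380, 569, 525, 555 and 511 CPM in mature ones, and all mature libraries were lower. The gene nrv2 moved up, from 115 and 129 CPM to between 141 and 192 CPM, a log2 fold change of 0.50 ± 0.13 (adjusted p = 0.00581), while in controls it had moved down. The test of that contrast is the difference of effects given above. Beside these values, 6 of 12 Kenyon cell markers, 6 of 9 photoreceptor markers and 2 of 6 markers of all neurons were called higher in mature than in juvenile knockdowns and 0 lower, and their part in the rise of nrv2 was not tested.

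Also in the knockdowns, wrapper rose by 1.36 ± 0.35 on the log2 scale (adjusted p = 0.00607), and repo rose from 21.3 and 24.1 CPM to 33.5, 32.9, 25.0, 38.9 and 41.9 CPM. The third mature knockdown library was nearest to the juvenile ones for repo, and its log2 fold change was 0.60 ± 0.20 (adjusted p = 0.0288). Eaat1 and Gat were at 0.35 ± 0.16 and 0.18 ± 0.22 (adjusted p = 0.101 and 0.551), and Eaat1 passed without mature knockdown replicate 1, at 0.45 (adjusted p = 0.0264). Only the call of bdl in this comparison held whichever juvenile knockdown library was left out. Without the first, bdl and wrapper were called, and without the second, Gs2, bdl and nrv2 were. The call of repo was also lost without mature knockdown replicate 4 or 5, and that of Gli without mature control replicate 3 or mature knockdown replicate 1, 3 or 5. Under limma-voom with sample weights the calls of repo and Gli were lost as well (adjusted p = 0.0561 and 0.0958). The median log2 fold change of the 8 markers was -0.58 in controls, beside -0.06 for all genes, and 0.27 in knockdowns, beside -0.07.

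Of the 30 other glial genes, 1 rose and 9 fell from juvenile to mature controls, where 12.2% and 9.87% of all genes did. The rise was that of Cyp4g15, a cytochrome P450 gene, at 0.46 ± 0.15 (adjusted p = 0.0288). The 3 falls of smallest p were those of Obp44a at -1.01 ± 0.15, of loco, a regulator of G-protein signalling at the blood-brain barrier, at -1.18 ± 0.20, and of drpr, the engulfment receptor, at -0.61 ± 0.11. In knockdowns 8 rose and 5 fell, where 17.8% and 16.4% of all genes did, so that the share that fell is near the background. Cyp4g15 rose by 1.03 ± 0.17 on the log2 scale, Gdh, glutamate dehydrogenase, by 0.51 ± 0.14 and Cont, a septate junction adhesion protein, by 0.45 ± 0.11, whereas drpr, at -0.89 ± 0.12, loco, at -1.23 ± 0.22, and the β-alanyl conjugating enzyme gene e, at -3.28 ± 0.65, fell.

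Summed over the 8 measured markers, the level stood at 1844 ± 53 CPM in juvenile controls (SD, n = 3), 1479 ± 140 in juvenile knockdowns (n = 2), 1122 ± 177 in mature controls and 1134 ± 147 in mature knockdowns (n = 5 each). The 4 groups fell into 3 separate ranges, of 1784 to 1886, 1380 to 1578 and, for the 2 mature groups, 878 to 1325 CPM. Gs2 supplied the largest part of each sum, with means of 997, 876, 541 and 508 CPM in the same order of groups. Other markers also moved between juvenile controls and knockdowns. The mean of nrv2 went from 227 to 122 CPM, that of Eaat1 from 205 to 145 and that of wrapper from 3.12 to 4.87. The sum therefore does not follow Gs2 alone. Beside the fall from juvenile to mature controls, the Kenyon cell markers summed to between 9064 and 13016 CPM in juvenile and between 9368 and 14446 CPM in mature controls, with 2 of 12 called higher and 0 lower. Photoreceptor markers summed to between 5941 and 6551 CPM and between 5680 and 11559 CPM, with 3 of 9 called higher and 3 lower. Fat body markers summed to between 364 and 426 CPM and between 2238 and 3068 CPM, with 3 of 9 called higher, 1 lower and most of the mature sum in apolpp, a lipoprotein gene. The part of these cell types in the glial values was not tested.

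**Figure D4:**
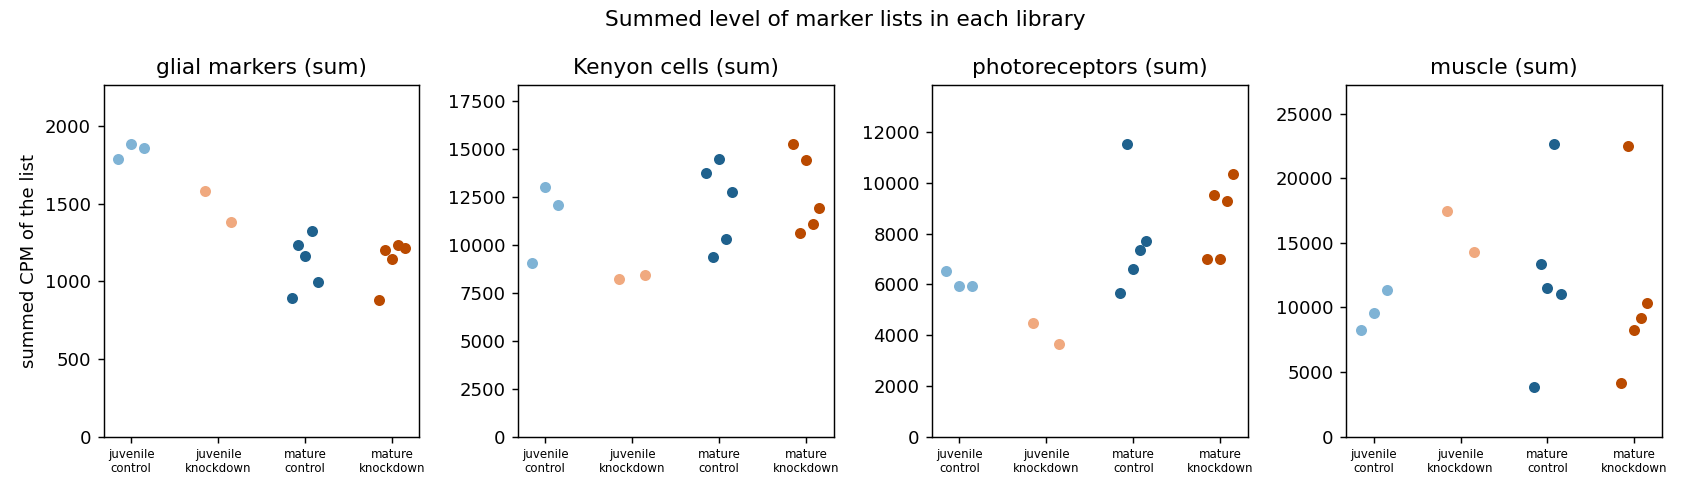
Summed CPM of 4 marker lists (vertical axes, from 0) in each library, by group (horizontal axis). Points are libraries. The glial sum lies between 1784 and 1886 CPM in juvenile controls and between 878 and 1325 CPM in the 10 mature libraries, and muscle sums range most widely within the mature groups.

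Libraries of the same group differed in several markers at once, though not in all of them. In mature controls, replicate 1 was the lowest of the 5 libraries for 6 of the 8 markers, Gs2, Eaat1, Gli, Gat, bdl and nrv2, and in mature knockdowns replicate 1 was lowest for the same 6. The gap was widest for Gat, which lay 0.67 below its group mean on the log2 scale in mature knockdown replicate 1, and for Gli, which lay 0.56 below in mature control replicate 1. Replicate 3 was lowest for the other 2, repo and wrapper, in both mature groups. At the other end, mature control replicate 4 was highest for 5 markers and mature knockdown replicate 5 for 5. The share of all genes that were lowest or highest in these libraries was not counted, so the markers cannot be set apart from other genes here. The muscle markers summed to 3818 CPM in mature control replicate 1 and to 4115 CPM in mature knockdown replicate 1, the lowest of each group, and the Kenyon cell markers to 13713 and 15266 CPM, and their part in these values was not tested. The labels do not say that a replicate number marks a shared batch or day.

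**Figure D5:**
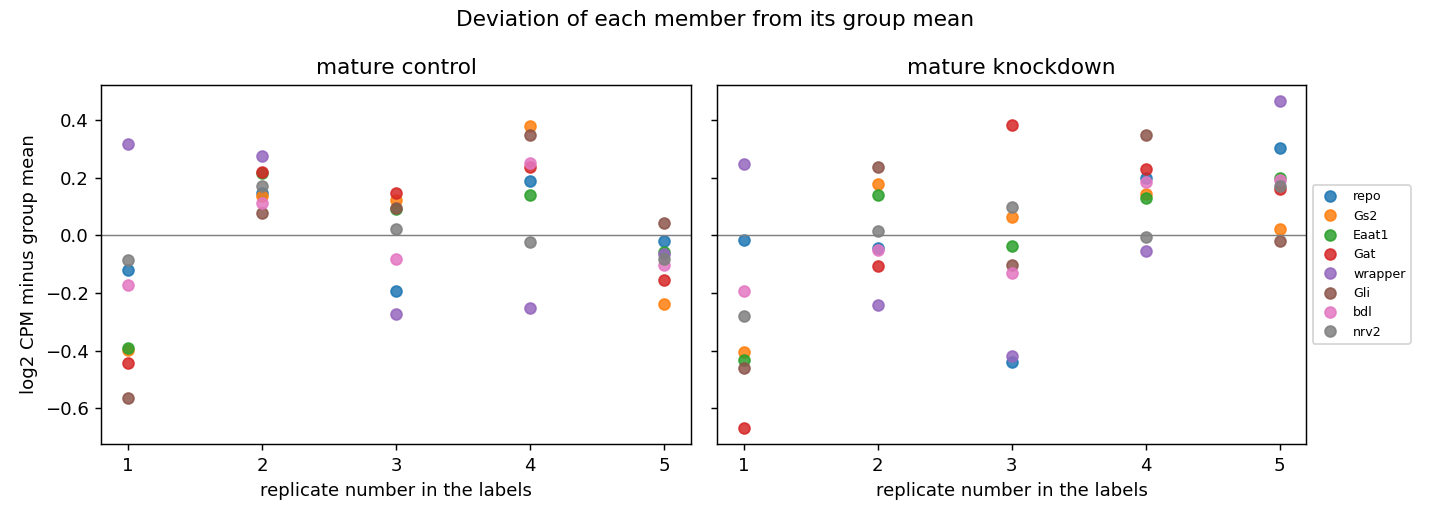
Log2 CPM of each glial marker minus the mean of its group (vertical axis) in the 5 mature control and 5 mature knockdown libraries (horizontal axis, by replicate number). Each colour is 1 marker. In replicate 1 of both groups most markers lie below their mean, and wrapper lies above it.

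A mean of the 7 measured markers other than nrv2 was formed from each gene's deviations from its group means, scaled by its spread. Over the 15 libraries, and as a description of libraries that share depth and composition, its Pearson correlation was 0.92 with Eaat1, 0.90 with bdl, 0.81 with Gs2, 0.77 with Gli, 0.76 with Gat and 0.55 with repo, all of which enter it. It was 0.65 with nrv2, which does not, and 0.03 with wrapper, so wrapper varied apart from the rest. Among 6489 genes with a symbol and a mean of at least 5 CPM, the 5 non-members with the highest correlation were Pkn at 0.95, CG32280 at 0.92, Obp57c and CG2082 at 0.91 and CG17224 at 0.90. The gene e of the wider glial list ranked 626 among them at 0.67, still above the 0.65 of nrv2. Genes of that wider list ranged from -0.43 to 0.87. Pkn encodes a protein kinase, and Obp57c belongs to the odorant-binding protein family.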

How the data were processed

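Each library has 1 deposited file of raw read counts by gene ID, whole numbers without normalization. Per the submitters' processing notes, the tools were STAR 2.5.3a (alignment) and HTSeq 0.7.1 (counting) and the build BDGP6. How strand and overlapping features were handled, and with which annotation, is not given in the sources used here. HTSeq's no-feature entry (1.12% to 2.84%) and ambiguous entry (7.08% to 7.75%) were left out, as was the UNC84 entry. No 2 replicates agreed within sampling noise.

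Symbols and positions came from annotation release 115 on BDGP6.54, and 17253 IDs received a symbol. Genes were filtered by filterByExpr in edgeR 4.0.16 (R 4.3.3), scaled by TMM and fitted with the quasi-likelihood test over all 15 libraries with 1 mean per group. Benjamini-Hochberg adjustment ran over the 11997 genes tested, and the threshold for a call was an adjusted p of 0.05. The script was tested on simulated data. Alternatives used other scalings, no filter, DESeq2 1.42.0, limma 3.58.1, the compared groups alone, a replicate block and each library left out.

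The members and lists were chosen with earlier results of these data known. The 10 markers, Bap60, at most 3 called other glial genes per direction and comparison, the 2 highest genes of other cell types' lists and the 5 genes most like the markers could be named. The genes ey, Mef2, jdp, Eaat2, Indy, kcc, ine, zyd, CarT and gb were named after their values were seen.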

Additional observations from a re-analysis of the deposited data

Results flagged for a closer look

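The summed level of the 8 measured glial markers was 878 CPM in mature knockdown replicate 1, while the other 4 mature knockdown libraries lay between 1143 and 1232 CPM. The gap to the next library was large for the range of the group. In 18 such sets of 5 mature libraries, 1 stood apart in this way, and chance gives about 1 in 20.

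The effect of the knockdown on nrv2 differed between ages by 1.07 on the log2 scale, with lower levels in both juvenile knockdown libraries and overlapping levels in mature flies.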

How the results depend on the processing

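The counts of called markers were 1 (juvenile knockdown), 0 (mature knockdown), 6 (mature against juvenile control), 6 (mature against juvenile knockdown) and 1 (difference of effects). With the replicate number as a replicate block they were again 1, 0, 6, 6 and 1. Same-numbered mature libraries had correlations of their deviations between -0.0033 and 0.275. Differently numbered libraries were not compared, so these values cannot decide whether the numbers pair the libraries. The main fit did not pair them. With limma-voom and sample weights the counts were 0 in the juvenile comparison, 1 in the mature one, 4 in each comparison of ages and 0 for the difference, and the cause was not tested. Leaving out 1 library gave 2 to 6 called markers from juvenile to mature knockdowns. Both calls of nrv2, in juveniles and for the difference, held in all other alternatives, with juvenile log2 values from -0.99 to -0.79, and no called value changed sign in any alternative run. The call of repo from juvenile to mature knockdowns was lost with RLE scaling (0.48), upper-quartile scaling (0.50), DESeq2 (0.48) and limma-voom (0.72). RLE scaling moved the median of all genes in that comparison from -0.07 to -0.18, and upper-quartile scaling moved it to -0.17. Over all genes, DESeq2 called 1216 and limma-voom 10 in the juvenile comparison, against 640. In the mature comparison DESeq2 called 47 and limma-voom 114, against 7. Genes counted inside other genes cannot be read from these files, and 2 juvenile knockdown libraries limit every comparison that uses them.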
